A study of Mus musculus with 30 samples.

Results

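The annexins Anxa1 to Anxa7 and the S100 genes S100a6, S100a10 and S100a11 were followed in mouse embryonic stem (ES) cells that differentiated after withdrawal of LIF, the cytokine that keeps such cells self-renewing. These 10 genes were chosen by name, with their changes in these arrays already known. Of them, 9 had at least 1 probe set of their own (21 probe sets in all), among 18194 genes with such a probe set on the array. The exception was S100a11, whose probe set is annotated to Gm12854 and S100a11-ps as well. RNA was measured on 30 one-colour Affymetrix arrays. The cells were ES cells labelled Jmj (-/-) mutant, here null, and ES cells labelled Jmj (fl/fl) wild-type, here Fl/Fl, which carry the same gene in floxed form. Jmj is Jarid2, a partner of Polycomb repressive complex 2. Null cells had 3, 5, 5, 5 and 2 arrays at days 0, 2, 4, 6 and 8, and Fl/Fl cells had 2 arrays on each of those days, with day 0 being the undifferentiated state. Arrays of a group are labelled as biological replicates, with no word on separate cultures or clones, so the p-values measure the spread between these arrays, which may be technical.

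Annexins are cytosolic proteins that bind acidic phospholipids when calcium rises, and so gather at the inner face of membranes, where they act in membrane repair, vesicle traffic and linkage of the membrane to actin. S100 proteins are small calcium-binding proteins with EF hands, and several of them bind an annexin partner. S100A10 joins annexin A2 in a heterotetramer, S100A11 binds annexin A1, and S100A6 (calcyclin) binds several annexins. In most tissues annexins are more abundant in epithelial, mesenchymal and other differentiated cells than in undifferentiated stem cells.

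All levels below are deposited intensities on a linear scale, given for the brightest probe set of each gene. Differences are on the log2(intensity + 4) scale, with the standard error (SE) of a limma fit over all 30 arrays, and a gene was called at an adjusted p under 0.05. Because the genes were picked for their behaviour in these comparisons, their differences are given as a description, without p-values of their own. Array mean intensities lay between 331.8 and 363.6, and no count or depth stands behind an intensity, so the number of arrays limits the precision. In a bulk sample, fewer cells of a type and less RNA per cell cannot be told apart.

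Jarid2, the targeted gene, had an intensity of 2872 to 4082 on the null arrays of day 0 and 383 to 920 on those of day 8, against 3335 to 3340 and 319 to 416 on the Fl/Fl arrays of those days. It was not lower in null at the later days: at day 4 it was 1257 to 1470 on null arrays and 709 to 710 on Fl/Fl arrays, a log2 difference of 0.91 (SE 0.238, limma adjusted p = 0.0149). The labels do not say which part of the gene was deleted, so these probe sets cannot check the genotype labels. The null arrays were not of one kind. The intensity of the Y-linked gene Eif2s3y was 594 to 981 on 11 null arrays, 217 to 365 on 5 and 11 to 16 on 4, against 130 to 234 on the 10 Fl/Fl arrays. The 11 arrays of high Eif2s3y were replicates 2 and 3 at day 0 and replicates 3 to 5 at days 2, 4 and 6. None was from day 8. Their ratio of 3' to 5' actin signal was 1.288 to 1.43, against 1.48 to 2.037 on the Fl/Fl arrays and 1.545 to 2.024 on the other null arrays. The annexin and S100 differences without these arrays, and with them as the only null arrays, are given beside the counts of calls. Markers of undifferentiated ES cells were high at day 0 in both genotypes: the summed intensity of 10 such genes was 57483 to 69067 on null arrays and 64581 to 72159 on Fl/Fl arrays, and 0 were called different by limma (0 at an unadjusted p under 0.05).

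Anxa1, Anxa2, Anxa3 and Anxa5 were already present in undifferentiated Fl/Fl cells, were several-fold lower in null cells at day 0, and reached high levels late in both. Anxa6 was lower in null cells at days 4 and 6, by less. Anxa7 stayed between 996 and 2118 on all 30 arrays and was called lower in null cells at day 4 and on no other day, and Anxa4 was dim. S100a6 was called lower in null cells at days 2, 4 and 6, but not at day 0, where its null arrays were far apart. S100a10 differed little at day 0 and most at day 4.

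Anxa1 binds formyl peptide receptors when secreted and limits inflammation, and was the gene with the widest range. At day 0 it had an intensity of 473, 103 and 82 in null cells, against 1255 and 1503 in Fl/Fl cells. At day 2 it had 152, 81, 90, 41 and 65 in null cells, near the lower end of its range, against 820 and 772 in Fl/Fl cells. At day 4 it had 78, 267, 269, 111 and 131 in null cells, against 2376 and 2133 in Fl/Fl cells. No null array reached the lower Fl/Fl array on these days, and the log2 difference was -3.07 (SE 0.667) at day 0 and -3.85 (SE 0.612) at day 4. At day 6 the null intensities were 778, 2560, 1488, 1199 and 1163, against 8777 and 10722 in Fl/Fl cells. At day 8 the 2 null arrays were far apart, at 4739 and 16756, while the Fl/Fl arrays stood at 18735 and 19313.

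Anxa2, which links the membrane to actin and serves at the cell surface as a platform for plasminogen activation, had intensities of 517, 473 and 257 in null cells at day 0, against 1942 and 1371 in Fl/Fl cells. At day 2 it was lowest in both genotypes, with 170, 156, 117, 141 and 131 in null cells and 755 and 623 in Fl/Fl cells. The groups did not overlap on either day, with log2 differences of -2.03 (SE 0.342) at day 0 and -2.24 (SE 0.313) at day 2. At day 4 the null arrays had 451, 748, 749, 401 and 411, against 3527 and 3306 in Fl/Fl cells. At day 6 they had 2549, 4110, 3832, 2788 and 2815, against 6403 and 7036, so the difference narrowed to -1.09 (SE 0.313). At day 8 the null arrays had 4521 and 10529 and the Fl/Fl arrays 10928 and 11732.

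Anxa3 had intensities of 140, 157 and 59 in null cells at day 0, against 424 and 652 in Fl/Fl cells. At day 2 null cells had 116, 51, 167, 86 and 89. In Fl/Fl cells the climb came between day 2, at 597 and 543, and day 4, at 3655 and 3742. At day 4 null cells had 432, 906, 758, 465 and 485, which lies near the Fl/Fl level of day 2. The log2 difference was -2.22 (SE 0.461) at day 0 and -2.66 (SE 0.423) at day 4. At day 6 null cells had 1624, 2981, 3564, 2893 and 2822, all below the 3689 and 4739 of Fl/Fl cells, and the difference was down to -0.64 (SE 0.423). At day 8 the 2 null arrays, 2615 and 6428, lay on either side of the Fl/Fl arrays, 4862 and 4671.

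Anxa5, a phosphatidylserine-binding annexin used as a probe for dying cells, had intensities of 294, 97 and 68 in null cells at day 0, against 1088 and 703 in Fl/Fl cells. At day 2 it had 215, 165, 112, 76 and 114 in null cells, against 598 and 652 in Fl/Fl cells. At day 4 it had 341, 517, 348, 256 and 250 in null cells, against 3752 and 3964 in Fl/Fl cells. At day 6 it had 1739, 3656, 2400, 1939 and 1786 in null cells, against 9110 and 10068 in Fl/Fl cells. The groups were apart on all 4 days, with log2 differences of -2.76 (SE 0.501) at day 0, -3.53 (SE 0.459) at day 4 and -2.11 (SE 0.459) at day 6. At day 8 the null arrays had 4009 and 10471 and the Fl/Fl arrays 9380 and 10127, so that 1 null array was above both.

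**Figure D1:**
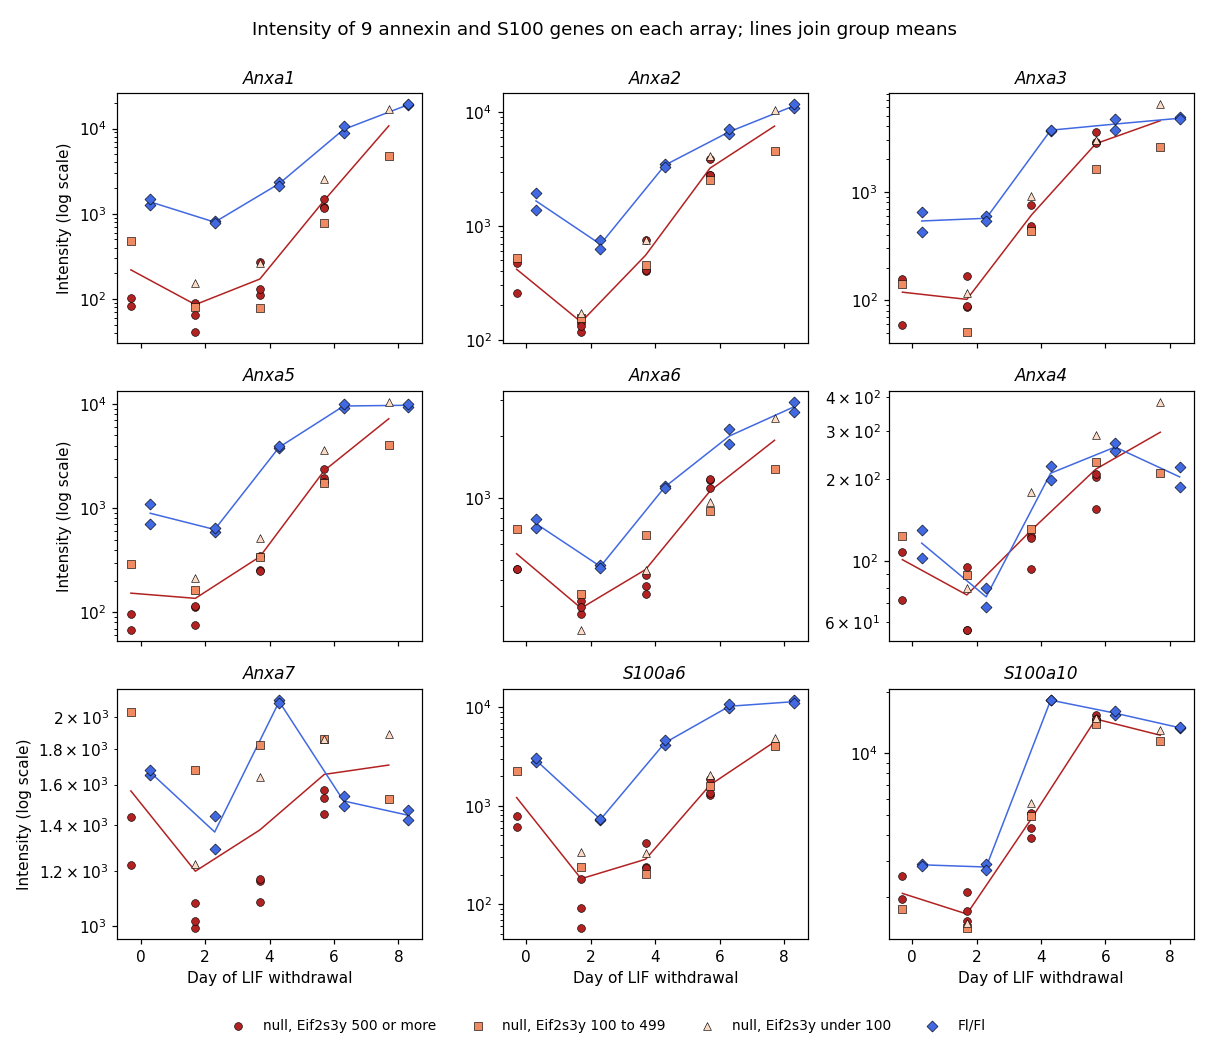
Intensity on each of the 30 arrays (vertical log axis, which differs by panel) by day of LIF withdrawal for the brightest probe set of the 9 measured genes. Null arrays are left of Fl/Fl arrays (blue diamonds) and marked by their Eif2s3y intensity, and lines join the group means. For Anxa1, Anxa2, Anxa3, Anxa5, Anxa6, S100a6 and S100a10 every null array lies below every Fl/Fl array at days 0, 2, 4 and 6. On these days in order, 9.90%, 8.39%, 14.3% and 14.7% of all genes do so. Anxa4 and Anxa7 overlap at days 0, 2 and 6.

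Anxa6 carries a doubled annexin core and acts in endocytic traffic. At day 0 it had intensities of 707, 452 and 451 in null cells and 716 and 788 in Fl/Fl cells, so that the highest null array nearly met the lower Fl/Fl array. At day 4 the gap was wider, with 663, 446, 422, 376 and 342 in null cells and 1149 and 1122 in Fl/Fl cells. The log2 difference was -0.52 (SE 0.254) at day 0 and -1.37 (SE 0.233) at day 4. Without the null arrays of high Eif2s3y the Anxa6 difference was -0.09 at day 0 and -1.06 at day 4, and not called on either day. At day 6 it had 866, 960, 1225, 1246 and 1124 in null cells, against 1832 and 2182 in Fl/Fl cells. At day 8 it had 1384 and 2443 in null cells, against 2627 and 2936 in Fl/Fl cells.

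Anxa4 and Anxa7 behaved otherwise. Anxa4, an annexin of epithelia, had intensities of 124, 108 and 72 in null cells at day 0 and 130 and 103 in Fl/Fl cells, with overlapping groups and a log2 difference of -0.22 (SE 0.291). Its highest value was 384, on a null array of day 8. A second Anxa4 probe set ran the other way at day 0, with 51, 104 and 120 in null cells and 57 and 20 in Fl/Fl cells, so no direction is given for Anxa4 at that day. Anxa7, an annexin with a long amino-terminal domain, had 2034, 1439 and 1227 in null cells at day 0 and 1651 and 1682 in Fl/Fl cells. Over all 30 arrays the brightest Anxa7 probe set lay between 996 and 2118, and every null array lay below both Fl/Fl arrays only at day 4, at 1823, 1643, 1163, 1172 and 1083 against 2118 and 2095. The Anxa7 difference at day 4 was -0.64 (SE 0.209), and it was -0.28 and not called without the null arrays of high Eif2s3y. At day 8 both null arrays, at 1523 and 1891, lay above the Fl/Fl arrays, at 1422 and 1469, as for 8.48% of all genes.

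S100a6 had intensities of 2241, 785 and 609 in null cells at day 0, against 2755 and 3045 in Fl/Fl cells. Null replicate 1, of the middle Eif2s3y level, was close to the Fl/Fl arrays and the other 2 null arrays were far below them. At day 2 it stood at its lowest group mean in both genotypes, with 339, 241, 181, 91 and 58 in null cells and 711 and 741 in Fl/Fl cells. Fl/Fl cells had regained 4094 and 4636 by day 4, while null cells still had 205, 333, 419, 242 and 236, and the log2 difference reached -3.95 (SE 0.491). At day 6 null cells had 1580, 2031, 1878, 1293 and 1355, against 9762 and 10715 in Fl/Fl cells, a difference of -2.67 (SE 0.491). At day 8 null cells had 4052 and 4867, against 11871 and 10922 in Fl/Fl cells, a difference of -1.36 (SE 0.587).

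S100a10, the partner of annexin A2, had a different course. At day 0 it had intensities of 1751, 2538 and 1942 in null cells, against 2893 and 2832 in Fl/Fl cells, a log2 difference of -0.48 (SE 0.154). At day 2 it had 1490, 1413, 2112, 1700 and 1523 in null cells, against 2894 and 2690 in Fl/Fl cells. By day 4 Fl/Fl cells had 18214 and 18120, their highest level, and null cells had 4959, 5735, 5110, 4314 and 3877. The groups were widely apart, with a difference of -1.93 (SE 0.141). By day 6 null cells had 13896, 14842, 15344, 14766 and 14667, against 15394 and 16002 in Fl/Fl cells, a difference of -0.09 (SE 0.141). At day 8 they had 11548 and 12963, against 13288 and 13378. A second bright probe set of S100a10 followed the same course.

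The probe set shared by S100a11 and 2 other annotated genes had intensities of 1762, 1474 and 1408 in null cells at day 0, against 2485 and 2611 in Fl/Fl cells. At day 4 it had 1279, 1930, 1783, 1343 and 1284 in null cells, against 7687 and 8030 in Fl/Fl cells. At day 8 it had 5439 and 11485 in null cells and 9960 and 9848 in Fl/Fl cells. These values cannot be given to S100a11 alone, and this probe set is in no test or count.

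The sequence upstream of the start was available for 6 of the 9 measured genes, in the RefSeq annotation of mouse assembly GRCm38.p6. Anxa3, Anxa6 and S100a10 had none. Of the 6, the windows of Anxa1, Anxa2, Anxa5 and S100a6 are shown. For these genes every null array lay below every Fl/Fl array at days 0, 2, 4 and 6. Each holds the 250 bases upstream of the annotated start, 5' to 3' on the strand of the gene, and capitals mark a match to a motif searched on both strands. The motifs were the AP-1 motif TGANTCA, the TEAD motif GGAATG, the TATA box TATAAA, the GC box GGGCGG and the CArG box of serum response factor.
Anxa1 (chr19:20390672-20390921, minus strand): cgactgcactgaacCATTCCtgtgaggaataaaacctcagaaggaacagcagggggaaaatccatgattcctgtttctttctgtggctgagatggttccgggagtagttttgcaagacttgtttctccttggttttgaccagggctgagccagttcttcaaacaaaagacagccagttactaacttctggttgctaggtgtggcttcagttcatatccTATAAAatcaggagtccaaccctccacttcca
Anxa2 (chr9:69453433-69453682, plus strand): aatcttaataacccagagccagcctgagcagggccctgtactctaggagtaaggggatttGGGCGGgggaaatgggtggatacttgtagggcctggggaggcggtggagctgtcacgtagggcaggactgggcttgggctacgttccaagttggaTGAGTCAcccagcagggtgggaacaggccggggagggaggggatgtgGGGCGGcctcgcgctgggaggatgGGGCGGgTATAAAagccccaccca
Anxa5 (chr3:36475888-36476137, minus strand): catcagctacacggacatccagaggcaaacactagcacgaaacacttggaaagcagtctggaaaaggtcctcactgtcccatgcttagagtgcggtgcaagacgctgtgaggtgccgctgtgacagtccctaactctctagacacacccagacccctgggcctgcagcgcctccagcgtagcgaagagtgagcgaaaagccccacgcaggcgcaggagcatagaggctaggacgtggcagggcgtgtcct
S100a6 (chr3:90612644-90612893, plus strand): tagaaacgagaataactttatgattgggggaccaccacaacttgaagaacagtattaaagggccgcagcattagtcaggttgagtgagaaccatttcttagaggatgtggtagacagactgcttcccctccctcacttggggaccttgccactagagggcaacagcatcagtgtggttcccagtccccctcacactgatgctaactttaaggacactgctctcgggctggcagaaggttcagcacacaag

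The windows shared no motif that all 4 held. The Anxa1 window had 1 TEAD match, 231 to 236 bases upstream on the opposite strand, and 1 TATA match 27 to 32 bases upstream. The Anxa2 window had 1 AP-1 match 89 to 95 bases upstream, 1 TATA match 12 to 17 bases upstream and 3 GC boxes. The Anxa5 and S100a6 windows had none of the 5 motifs. Of 32851 windows of this length, 6.75% held the AP-1 motif, 12.6% the TEAD motif, 12.4% the TATA box, 32.7% the GC box and 1.47% the CArG box. The matches describe these letters only.

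Between day 0 and day 8 the level rose in Fl/Fl cells for 7 of the 9 genes by the adjusted p of limma, against 15.0% of all genes called higher. By the same rule it rose in null cells for 8 of 9, against 14.9% of all genes. The day 8 minus day 0 log2 differences, null first and then Fl/Fl, were 5.77 and 3.79 for Anxa1, 5.65 and 3.47 for Anxa5, 5.18 and 3.17 for Anxa3, and 4.10 and 2.79 for Anxa2. They were 2.57 and 2.22 for S100a10, 2.11 and 1.97 for S100a6, 1.80 and 1.88 for Anxa6, 1.49 and 0.79 for Anxa4, and 0.15 and -0.20 for Anxa7. The null changes set day 8, with no array of high Eif2s3y, against day 0, where 2 of 3 arrays were of that kind. Without those arrays the null changes were 4.22 for Anxa1, 4.44 for Anxa5, 4.83 for Anxa3, 3.73 for Anxa2, 2.80 for S100a10, 0.99 for S100a6, 1.37 for Anxa6, 1.17 for Anxa4 and -0.26 for Anxa7. The S100a6 change in null cells was then below that in Fl/Fl cells, and the null minus Fl/Fl difference between the Anxa1 changes was 0.44, against 1.98 with all arrays. With all arrays the difference between the 2 changes was called for 0 of 9 genes by limma, against 1.09% of all genes. At an unadjusted p under 0.05 there were 3 of the 9, against 1952 of all 18194 genes. Every day 8 array was above every day 0 array for 8 of 9 genes in null cells, against 14.8% of all genes, and for 8 of 9 in Fl/Fl cells, against 22.3%. Anxa7 was the exception in both.

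From day 0 to day 2 the levels were lower or nearly level. The log2 changes ran from -2.72 for S100a6 to 0.03 for Anxa5 in null cells, and from -1.99 for S100a6 to 0.11 for Anxa3 in Fl/Fl cells. In between lay Anxa2, at -1.46 in null cells and -1.25 in Fl/Fl cells, Anxa1, at -0.99 and -0.78, and S100a10, at -0.33 and -0.04. The level at which Fl/Fl cells began was first met by the null group mean at day 4 for Anxa3, Anxa4 and S100a10, at day 6 for Anxa1, Anxa2, Anxa5 and Anxa6, and at day 8 for S100a6 and Anxa7. The null group mean met the Fl/Fl mean of day 4 at day 6 for Anxa4. It did so at day 8 for Anxa1, Anxa2, Anxa3, Anxa5, Anxa6 and S100a6, and on no day for S100a10 and Anxa7. For Anxa3 and S100a6 the null arrays of day 8 lay on both sides of that level. Null arrays also lay on both sides of the Fl/Fl day 0 mean for Anxa3 at day 4 and Anxa1 at day 6. The genotypes overlapped at day 0 for Anxa4 and Anxa7, so no delay is read from the days of these genes.

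**Figure D2:**
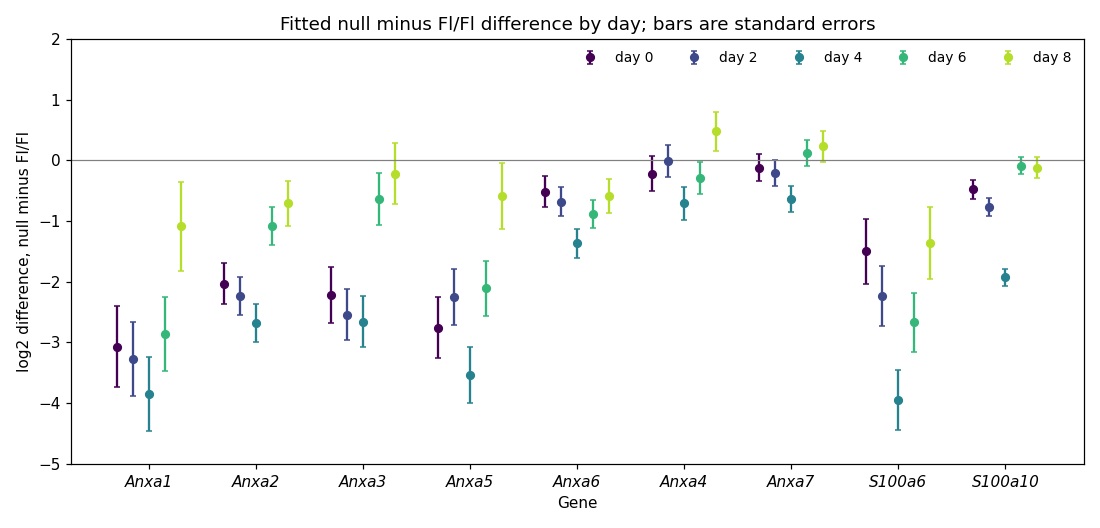
Fitted log2 difference, null minus Fl/Fl, for each gene at days 0, 2, 4, 6 and 8 (points), with the standard error of the fit (bars). The lowest point of each of the 9 genes is at day 4, and at day 8 all but Anxa4 and Anxa7 lie below 0.

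Null cells were called lower for 4 of the 9 genes at day 0 (Anxa1, Anxa2, Anxa3 and Anxa5), beside 0.929% of all genes. They were called lower for 6 at day 2 (the same 4 with S100a6 and S100a10), beside 0.517%, for 8 at day 4 (all but Anxa4), beside 7.43%, and for 5 at day 6 (Anxa1, Anxa2, Anxa5, Anxa6 and S100a6), beside 6.46%. At day 8 the count was 0 of 9, beside 1.80% of all genes called lower, in a comparison that called 457 genes by limma. At an unadjusted p under 0.05 there were 2 of the 9, against 2692 of all 18194 genes. Averaged over the 5 days, 7 were called lower, beside 15.5%. The median log2 difference over the 9 genes was -1.50, -2.23, -2.66, -0.89 and -0.59 for days 0, 2, 4, 6 and 8 in order, against a median of all genes between -0.01 and 0. Every null array lay below every Fl/Fl array for 7 of 9 genes at day 0, against 9.90% of all genes, for 7 at day 2, against 8.39%, for 9 at day 4, against 14.3%, for 7 at day 6, against 14.7%, and for 5 at day 8, against 16.8%. The genes were chosen with these contrasts known, so nothing is read from the counts.

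Averaging all probe sets of a gene in place of the brightest, which brings in probe sets near the floor, gave day 0 differences of -1.53 for Anxa1 and -0.72 for Anxa2.

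These counts depend on single arrays, as do the counts over all genes, whose ranges are given in the last section. Without Fl/Fl replicate 1 of day 0 the day 0 count was 2, and without null replicate 1 of day 0 it was 5. Without Fl/Fl replicate 1 of day 2 the day 2 count was 1, and without Fl/Fl replicate 2 of day 6 the day 6 count was 1. Without null replicate 2 of day 8, an array of very low Eif2s3y, 1 null array remained at that day. The Anxa1 difference was then -2.00, against -0.18 without null replicate 1. For S100a6 the same fits gave -1.49 and -1.23. For Anxa3 it was -0.86 and 0.43 and for Anxa5 -1.28 and 0.10, so the direction of both at day 8 turns on 1 array.

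Without the null arrays of high Eif2s3y, 1 null array remained at day 0, which the fit assumes to vary like the other groups, and 1 of the 9 genes was called (S100a10). The day 0 log2 differences were then -1.53 for Anxa1, -1.65 for Anxa2, -1.88 for Anxa3, -1.56 for Anxa5, -0.37 for S100a6, -0.71 for S100a10, -0.09 for Anxa6, 0.10 for Anxa4 and 0.29 for Anxa7. With the high arrays as the only null arrays they were -3.84 for Anxa1, -2.21 for Anxa2, -2.40 for Anxa3, -3.37 for Anxa5, -2.06 for S100a6, -0.37 for S100a10, -0.73 for Anxa6, -0.38 for Anxa4 and -0.33 for Anxa7. Anxa4 and Anxa7 thus changed sign between the sets, and the other 7 were below 0 in both. At day 2 the differences were -1.33 without and -2.83 with only the high arrays for S100a6, -1.71 and -2.61 for Anxa5, -2.80 and -3.59 for Anxa1, -2.05 and -2.37 for Anxa2, -2.82 and -2.35 for Anxa3, -0.94 and -0.66 for S100a10, -0.73 and -0.65 for Anxa6, 0.18 and -0.13 for Anxa4, and 0.07 and -0.40 for Anxa7. At day 4 they were -3.92 without and -3.80 with only the high arrays for Anxa1, -2.55 and -2.77 for Anxa2, -2.56 and -2.73 for Anxa3, -3.19 and -3.76 for Anxa5, -4.04 and -3.90 for S100a6, -1.77 and -2.04 for S100a10, -1.06 and -1.57 for Anxa6, -0.45 and -0.88 for Anxa4, and -0.28 and -0.89 for Anxa7, with all 9 below 0 in both sets. At day 6 Anxa3 was at -0.92 without and -0.44 with only the high arrays, Anxa6 at -1.13 and -0.74, and Anxa4 at -0.02 and -0.48. Anxa7 was at 0.30 and 0, S100a10 at -0.13 and -0.07, and the other 4 genes lay between -2.78 and -1.05 without the high arrays and between -2.92 and -1.11 with only them. What the Eif2s3y level marks in these cultures, and its part in these differences, was not tested.

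Marker genes of several other cell types also differed between null and Fl/Fl cells, though not always on the same days as the annexins. At day 0 the summed intensity of 10 simple epithelium genes was 11403 to 12318 in null cells and 17438 to 18171 in Fl/Fl cells. Of the 10, 4 were called lower, beside 0.929% of all genes: the keratins Krt8, Krt18 and Krt19 and the desmosome gene Dsp. Krt18 had a log2 difference of -3.21 (adjusted p = 0.000432, limma) and Krt8 of -3.23 (adjusted p = 0.0011, limma). Sums of 16 fibroblast genes were 4012 to 5020 in null cells and 5677 to 6932 in Fl/Fl cells at day 0, with Col1a1 alone called lower. Sums of 15 primitive and visceral endoderm genes were 1984 to 3231 and 3375 to 4582, with 0 called by limma (3 at an unadjusted p under 0.05). The median log2 difference at day 0 was -0.03 over the fibroblast genes and -0.08 over the endoderm genes. The lower sums thus do not describe most genes of either list. Sums of 10 trophoblast genes at day 0 were 710 to 1349 in null cells and 1537 to 1901 in Fl/Fl cells. Krt7 alone was called lower, by -2.46 and close to the threshold (adjusted p = 0.049, limma). The 12 macrophage and leukocyte genes summed to 147 to 229 in every group, near the floor of the arrays, and 0 were called by limma at any day (at most 2 on a day at an unadjusted p under 0.05). By day 4 the epithelium genes summed to 17304 to 22780 in null cells and 54935 to 57611 in Fl/Fl cells. Of them 6 were called lower, beside 7.43% of all genes, and 1 higher. The 10 ES cell genes summed to 24840 to 31649 in null cells and 14589 to 16963 in Fl/Fl cells at day 4, with 3 called higher. At day 6 the fibroblast genes summed to 18028 to 23645 in null cells and 40965 to 43372 in Fl/Fl cells. Of the 16, 8 were called lower, beside 6.46% of all genes. At day 8 again 8 of the 16 were called lower, beside 1.80% of all genes, with a median log2 difference of -1.44. None of the annexin and S100 genes was called at day 8. Of the 10 ES cell genes 5 were called higher and 1 lower (Klf4) at day 6, and 2 higher and 2 lower (Esrrb and Dppa5a) at day 8. The part of these cells in the annexin levels was not tested.

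Most of the other annexins and S100 genes were dim. The 4 further annexins measured, Anxa8, Anxa9, Anxa10 and Anxa13, summed to 23 to 64 on all arrays, and 0 were called by limma between null and Fl/Fl at any day (at most 2 on a day at an unadjusted p under 0.05). Of 11 further S100 genes, S100a13 was called lower in null cells at day 0, with means of 22.7 ± 2.1 (SD, n = 3) in null cells and 37.5 ± 4.9 (SD, n = 2) in Fl/Fl cells and a log2 difference of -0.64 (adjusted p = 0.00172, limma). It remained past the threshold without any 1 array. S100a13 was also called lower at day 6 and day 8, by -0.41 (adjusted p = 0.00549, limma) and -0.49 (adjusted p = 0.0139, limma), the first lost without Fl/Fl replicate 2 of day 6 and the second without Fl/Fl replicate 1 or null replicate 1 of day 8. S100a1 was called lower at day 8, at 14 and 30 in null cells and 35 and 38 in Fl/Fl cells, by -0.71 (adjusted p = 0.0115, limma), a call lost without either Fl/Fl array of that day. S100a3 was called lower and S100a5 higher at day 4, and S100a5 higher at day 8, at intensities of 3 to 7 near the floor of the arrays. Both day 4 calls were lost without Fl/Fl replicate 2 of that day. Without the null arrays of high Eif2s3y the S100a1, S100a5 and S100a13 calls of days 6 and 8 were lost too. S100a4, a gene of motile and mesenchymal cells, had 11 and 148 in null cells at day 8, against 460 and 488 in Fl/Fl cells, a log2 difference of -3.32 that missed the threshold (adjusted p = 0.0586, limma). It was called on no single day, and only averaged over the 5 days was it called lower, by -1.51 (adjusted p = 0.00466, limma).

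Genes whose proteins bind or use annexin A2 with S100A10 were measured for 14 of 15. By limma 0 of them were called at day 0, and 1 was lower at day 2, beside 0.517% of all genes called lower. At day 4, 5 were lower and 1 higher, beside 7.43% of all genes called lower. At day 6, 3 were lower, beside 6.46%, and 0 were called at day 8. At an unadjusted p under 0.05 there were 1 at day 0 and 3 at day 8. The scaffold gene Ahnak had a mean intensity of 266 ± 35 in null cells (SD, n = 3) and 1032 ± 392 in Fl/Fl cells (SD, n = 2) at day 0, a log2 difference of -1.90 that missed the threshold (adjusted p = 0.0607, limma). At day 2 it was -3.08 (adjusted p = 0.00116, limma), with 62 to 201 in null cells and 821 to 996 in Fl/Fl cells. Plat, which encodes tissue plasminogen activator, had 13 to 52 in null cells at day 6 and 588 to 737 in Fl/Fl cells, a difference of -4.78 (adjusted p = 1.12e-06, limma). Plgrkt, the plasminogen receptor gene, differed by -1.69 at day 4 (adjusted p = 0.00296, limma) and Ahnak2 by -3.20 (adjusted p = 0.00571, limma). Both day 4 calls were lost without Fl/Fl replicate 2 of day 4, with adjusted p = 0.0525 for Plgrkt and 0.0737 for Ahnak2.

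Genes of membrane repair, among them the ferlins, caveolar genes and calpains, were measured for 18 of 19. In null cells 1 was called lower at day 0 and 1 at day 2, beside 0.929% and 0.517% of all genes. Then 8 were called lower at day 4 and 5 at day 6, beside 7.43% and 6.46% of all genes. At day 8 the count was 0 (3 at an unadjusted p under 0.05), and 0 were called higher by limma on any day. Cavin1, a coat protein of caveolae, had a mean of 66 ± 45 in null cells (SD, n = 3) and 194.5 ± 24.7 in Fl/Fl cells (SD, n = 2) at day 0, a log2 difference of -1.69 (adjusted p = 0.0467, limma). That call was lost in 22 of the 30 fits that leave out 1 array. At day 4 Cavin1 differed by -3.79 (adjusted p = 1.15e-06, limma), with 67 to 113 in null cells and 1235 to 1250 in Fl/Fl cells. Cav1, the caveolin of those coats, had 5 to 19 in null cells at day 4 and 433 to 468 in Fl/Fl cells, a difference of -4.91 (adjusted p = 0.000123, limma). Myof, a ferlin, differed by -3.07 at day 4 (adjusted p = 0.000128, limma) and -2.96 at day 6 (adjusted p = 0.000226, limma). The day 4 calls of Cavin1, Cav1 and Myof held without any 1 array.

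**Figure D3:**
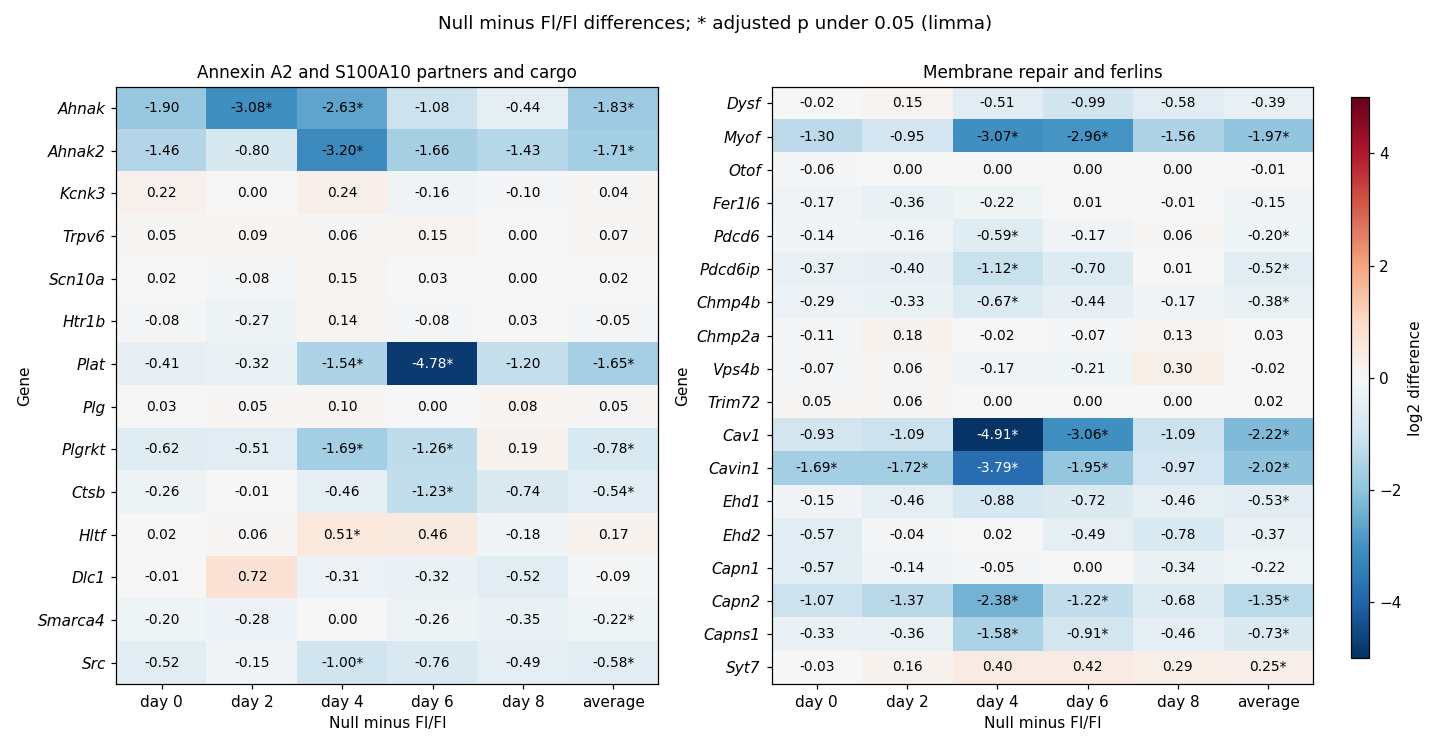
Log2 difference, null minus Fl/Fl, at each day and averaged over the 5 days (columns) for every measured gene of 2 related lists (rows), with an asterisk where limma's adjusted p is under 0.05. In the left panel the lowest values within day 4 are those of Ahnak2 and Ahnak, and within day 6 those of Plat and Ahnak2. In the right panel the lowest within each of these days are those of Cav1, Cavin1 and Myof. Hltf (left) and Syt7 (right) stand above 0 on both days.

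The receptors and kinases of annexin A1 were measured for 8 of 10 genes. Of them 0 were called by limma between null and Fl/Fl at days 0, 2, 4 and 8 (0 at an unadjusted p under 0.05), and Trpm7, a channel kinase that phosphorylates annexin A1, was lower at day 6 by a log2 difference of -0.61 (adjusted p = 0.0336, limma), a call lost without Fl/Fl replicate 2 of day 6 (adjusted p = 0.221). Among 5 EF-hand and calcyclin partner genes, Sri, the sorcin gene, was lower at day 4 by -1.23 (adjusted p = 0.000409, limma), and 0 were called by limma at the other days (at most 2 on a day at an unadjusted p under 0.05).

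The genes most like Anxa1, Anxa2, Anxa3 and S100a6 were found by Pearson r over the 10 group means of log2 level. They were sought among 2512 genes whose group means spanned at least log2 2. For Anxa1 they were Gsn (r = 0.9951), Aff1 (r = 0.9938) and Decr1 (r = 0.9869). For Anxa2 they were Tmsb4x (r = 0.9878), Tspan14 (r = 0.9854) and Plec (r = 0.9853). For Anxa3 they were Myh9 (r = 0.9965), Phldb2 (r = 0.9951) and Cnn2 (r = 0.9927), and for S100a6 Lmna (r = 0.9903), Hebp1 (r = 0.9784) and Bmp4 (r = 0.9753). Over the 30 arrays r for these pairs was lower, from 0.875 (Anxa1 with Decr1) to 0.986 (Anxa3 with Phldb2). Among the 9 genes themselves r was 0.746 to 0.98 for pairs without Anxa7 and 0.467 to 0.613 for pairs with it. These values describe the group means, which share the same arrays and the same 5 days.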

How the data were processed

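RNA of ES cells of 2 genotypes at 5 days was hybridised to 30 arrays, as biotin-labelled cRNA from total RNA per the labels' protocols. The deposited values are whole-number probe set intensity on a linear scale; the sources used here do not say how the authors normalised them and summarised probe sets. Probe sets were named from the platform annotation: 34958 of 45101 name 1 gene, 932 several and 9211 none, and 34754 matched the gene table of GRCm38.p6. The brightest probe set stood for each of 18194 genes. Values were taken as log2(intensity + 4), where 4 is the 5th percentile, so changes of dim genes are understated, and a model with a mean for each of the 10 groups was fitted with limma 3.58.1 (R 4.3.3; 20 residual degrees of freedom), with two-sided p-values adjusted by Benjamini-Hochberg over 18194 genes and a threshold of 0.05. No gene was filtered. On simulated data for the day 0 comparison, 72% of genes changed by log2 1 and 98% by log2 2 were recovered. The members and all lists were chosen with earlier results of these data known. Named genes were the members, up to 3 called genes per related list and comparison with the smallest adjusted p, and the 3 genes most like each of 4 members, together with marker genes of other cell types. Ahnak at day 0 and S100a4 were added after their values were seen. Alternatives were another pseudocount, 2 scalings, the mean of all probe sets, a filter on low values, leaving out arrays, the null arrays by Eif2s3y, and a replicate block. Same-numbered arrays of the 2 genotypes did not deviate together (r from -0.199 to 0.259).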

Additional observations from a re-analysis of the deposited data

How the results depend on the processing

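With only 2 Fl/Fl arrays a day, the number of genes called depends on single arrays. Leaving out 1 array at a time gave, from lowest to highest, 103 to 669 genes at day 0, 66 to 244 at day 2, 895 to 2654 at day 4, 546 to 2484 at day 6, 280 to 2504 at day 8 and 3392 to 5345 averaged over the days. It gave 3902 to 6108 for day 8 against day 0 in null cells, 4465 to 6424 in Fl/Fl cells and 162 to 1281 for the difference between these changes. Of the annexin and S100 genes it gave 2 to 5, 1 to 6, 7 to 9, 1 to 5 and 0 to 2 calls from day 0 to day 8, 7 averaged, 8 in null cells, 6 to 8 in Fl/Fl cells and 0 to 1 for the difference. With the dimmest 40% of genes left out, 113 genes were called at day 0, 299 at day 8 and 92 for the difference between changes. Without the null arrays of high Eif2s3y, the calls were 364 genes with 1 annexin or S100 gene at day 0, 53 with 1 at day 2, 925 at day 4, 308 with 1 at day 6, 270 with 1 at day 8, 1990 averaged, and 385 with 1 for the difference. With only the null arrays of high Eif2s3y, the calls at day 0 were 2601 genes with 7 annexin or S100 genes. They were 1902 with 8 at day 2, 4457 with 9 at day 4 and 4197 with 5 at day 6. Day 8 held no such array, so comparisons that need it were not run. Centring each array on its mean gave 7542 genes for the average. Scaling moved the split of calls: higher in null were 21% of calls at day 0 (36.2% after quantile normalization, 38.6% after centring), 36% at day 4 (48.5% and 46.7%), 34.9% at day 6 (48.3% and 45%), 28.2% at day 8 (40.8% and 40%) and 33.4% averaged (54.3% and 68%). Each null against Fl/Fl comparison called as many annexin and S100 genes under both scalings. The replicate numbers mark no shared culture in the labels and did not pair the arrays. With a replicate block, 61 genes and 3 annexin or S100 genes were called at day 2 and 3 of them at day 6. Leaving out 1 array, the log2 difference of S100a5 at day 4 ran from 0 to 0.15 and, for day 8 against day 0 in null cells, that of Anxa9 from 0 to 0.17 and that of Gata3 from 0 to 1.54. The causes were not tested.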
